A study of Mus musculus with 6 samples.

Results

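The Bcl-2 family genes described here are the 10 members Bcl2, Bcl2l1, Bcl2l2, Mcl1, Bcl2l11, Bmf, Bad, Bid, Bbc3 and Bok. They were taken by name from the array table, each from its probe set that maps to exactly 1 gene, out of 19938 genes read in the same way. All 10 were found, with 1 probe set each. BCR-ABL1, the fused kinase that the Philadelphia chromosome encodes in acute lymphoblastic leukaemia, had been used to transform pre-B cells of mice. Total RNA of 6 samples was hybridised to 1 Affymetrix array each. In 3 samples the transduced construct was ERT2, an oestrogen receptor's ligand-binding domain, alone. In the other 3 it was Cre-ERT2, a Cre recombinase that becomes active when 4OHT (4-hydroxytamoxifen) is bound. Both groups shared the 129SvEv x C57BL/6J background, a mouse age of 5 weeks, BCR-ABL1 and the Sox4fl/fl genotype. RNA of both groups was taken 24 h after 4OHT, with which deletion was induced in the Cre-ERT2 cells. Sox4 encodes a SoxC transcription factor of B-cell progenitors. No group joins Cre-ERT2 to unfloxed Sox4, so Cre activity and loss of Sox4 cannot be told apart. The labels do not say whether the 3 samples of a group were separate cultures, so the p-values measure a spread that may be technical.

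Proteins of the Bcl-2 family decide at the mitochondrial outer membrane whether a cell enters apoptosis. The survival proteins BCL-2, BCL-XL, BCL-W and MCL-1 hold the pore-forming relatives in check. The BH3-only proteins BIM, BMF, BAD, BID and PUMA, which sense missing growth signals, kinase activity or damage, bind the survival proteins through a short helix and take that hold away. BOK is a pore-forming relative. In B-cell precursors interleukin 7 and the pre-B cell receptor keep survival members high, and in BCR-ABL1 cells STAT5 is known to sustain Bcl2l1 transcription. The members are read here as transcripts, and an array probe set does not separate their splice forms or report protein.

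Sox4 was read first, as a check of the labels. Its intensity was 1459, 1372 and 1237 in the ERT2 arrays and 599, 541 and 499 in the Cre-ERT2 arrays. The difference was -1.31 on the log2 scale (SE 0.091, limma adjusted p = 0.000434), and a two-sided exact permutation test over the arrays gave p = 0.1, its lowest possible value. Whether its probes lie in the deleted part is not known here. Median intensity per array lay between 273 and 279. All 13 pre-B markers measured were brighter than the median probe set, and 8 of 8 T-cell, 7 of 7 NK-cell, 8 of 9 myeloid and 5 of 8 stromal markers, with 3 of 5 erythroid ones, lay below it.

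Of the 10 members 2 were higher and 2 were lower in Cre-ERT2 cells at a limma adjusted p under 0.05, where over all genes 4.38% were higher and 3.72% lower (8.10% in either direction). Bcl2l1 and Bok fell, and Bcl2l2 and Bcl2 rose. The survival genes thus held changes in both directions, with 2 of 4 higher and 1 lower. Of the 6 pro-death genes 0 rose and 1 fell by the same test, with unadjusted p under 0.05 in 5 of 6, beside 20.1% of all genes. The median log2 difference of the 10 members was 0.16, beside 0.02 over all genes. In 8 of 10 members the groups did not overlap, beside 28.3% of all genes. In 6 of these 8 the Cre-ERT2 arrays were the higher ones (17.5% of all genes, with 10.8% lower). The members were chosen with earlier results of these data known, so these counts beside the shares are a description.

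**Figure D1:**
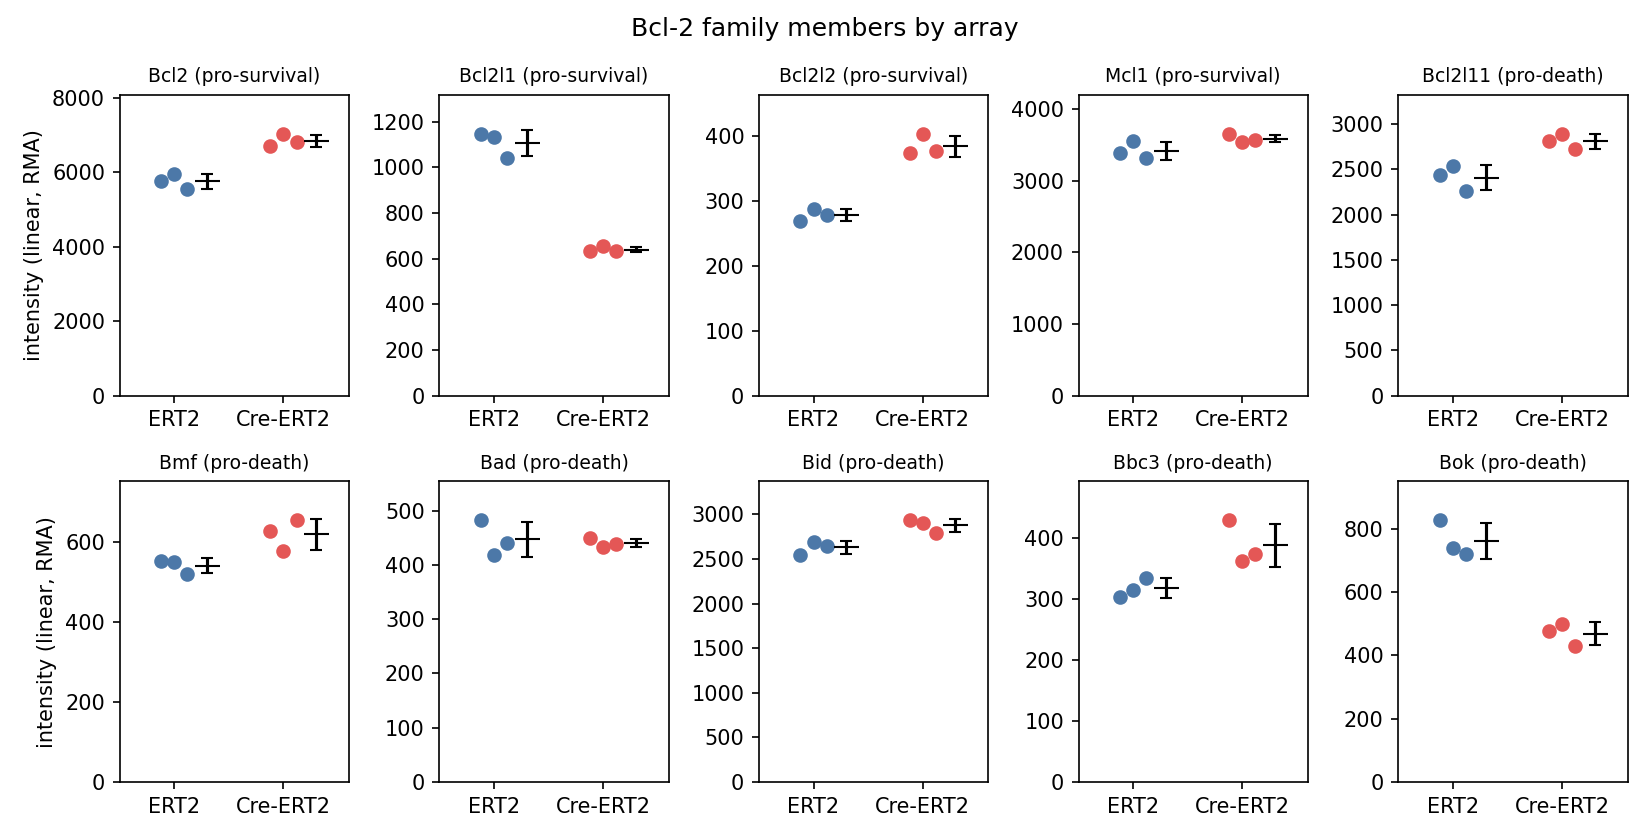
Intensity (linear scale) of the 10 members in each array, with ERT2 in blue and Cre-ERT2 in red, and the mean and SD of 3 arrays in black beside the points. Each panel has its own axis from 0. The arrays of Bcl2l1 and Bok were lower with Cre-ERT2 with no overlap, those of Mcl1 and Bad overlapped, and those of the other 6 genes were higher with no overlap.

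Among the survival genes, Bcl2l1 showed the widest difference. It encodes BCL-XL, and its probe set (10488655) read 1145, 1134 and 1041 in the ERT2 arrays. In the Cre-ERT2 arrays it read 634, 654 and 632. All Cre-ERT2 arrays lay well below all controls, and they differed little among themselves. Mean intensity was 1107 ± 56.8 (SD, n = 3) in ERT2 and 640 ± 12.2 (SD, n = 3) in Cre-ERT2, which is 57.8% of the control mean. The difference was -0.79 on the log2 scale (SE 0.0554, 95% interval -0.92 to -0.66, limma adjusted p = 0.000444). Over all genes 2.11% had a difference at least as far from 0. Leaving out any 1 of the 6 arrays kept it called, with differences from -0.83 to -0.76 and limma adjusted p-values from 0.0016 to 0.00492.

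Because Bcl2l1 fell in cells where a SOX factor had been targeted, its start regions are shown as RefSeq gives them for GRCm38.p6, each with 250 bases before and 50 after an annotated start. Capitals mark a match to ACAATG or ACAAAG on either strand, hexamers that hold the SOX core. Of the 3 windows of Bcl2l1, which lie on the minus strand, 2 held a match.
Bcl2l1, chr2:152828440-152828739: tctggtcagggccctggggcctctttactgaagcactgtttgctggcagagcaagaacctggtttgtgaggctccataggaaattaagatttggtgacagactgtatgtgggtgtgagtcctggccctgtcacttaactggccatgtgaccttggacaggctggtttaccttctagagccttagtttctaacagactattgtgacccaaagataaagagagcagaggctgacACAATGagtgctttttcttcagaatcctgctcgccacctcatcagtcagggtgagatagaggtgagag
Bcl2l1, chr2:152831679-152831978: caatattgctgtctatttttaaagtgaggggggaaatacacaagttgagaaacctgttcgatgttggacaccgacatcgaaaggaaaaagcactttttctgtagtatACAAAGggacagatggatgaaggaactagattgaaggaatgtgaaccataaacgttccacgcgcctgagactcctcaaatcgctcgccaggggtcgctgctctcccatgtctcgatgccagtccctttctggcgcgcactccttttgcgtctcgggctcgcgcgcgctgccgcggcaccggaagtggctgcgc
The first window holds ACAATG from 18 to 13 bases before the start, and the second holds ACAAAG from 143 to 138 bases before it. Of all 32851 windows of this length 28.6% held at least 1 of the hexamers, as did 4 of the 18 windows of the 10 members, those of Bcl2l1 and 1 each of Bid and Bbc3. The windows of Bok, Bcl2 and Bcl2l2, the other members that passed the test, held neither. G and C made up 56.3%, 76% and 65.3% of their bases. They made up 49.3% and 52.3% of the 2 windows shown, and the median over all windows was 52.7%. The part of base content in the matches was not tested. A match is a string of letters, and binding of Sox4 was not measured here. Motifs of other factors were searched in the same 18 windows on both strands. TTCNNNGAA, the STAT motif, was found in 0 of them and in 8.30% of all windows. TGTTTAC, the FOXO motif, was found in 2 of them, in Bcl2l11 and Bbc3, and in 3.65% of all windows. The E-box CACGTG was found in 1, in Bbc3, and in 7.15% of all windows.

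Bcl2l2, which encodes BCL-W, was higher. Its probe set (10415111) read 269.8, 288 and 278 in the ERT2 arrays. The Cre-ERT2 arrays read 374, 403 and 377, all above the controls. The difference was 0.46 on the log2 scale (SE 0.0543, 95% interval 0.33 to 0.59, limma adjusted p = 0.00411), with a Cre-ERT2 mean at 138% of the control mean. It stayed called when any 1 of the 6 arrays was left out, with limma adjusted p-values from 0.00988 to 0.0247.

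Bcl2, the founding survival gene of the family, was higher by a smaller factor. Its probe set is 10357043. Intensity was 5767, 5945 and 5552 with ERT2. With Cre-ERT2 it was 6708, 7025 and 6817. The groups were separate, and the Cre-ERT2 mean was 119% of the control mean. The difference was 0.25 on the log2 scale (SE 0.0499, 95% interval 0.13 to 0.37, limma adjusted p = 0.0358). Bcl2 lost its call when any array other than ERT2 replicate 2 was left out (limma adjusted p from 0.0945 to 0.148), with differences of 0.23 to 0.27, and the number of higher members was then 1.

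Mcl1, the short-lived survival member on which B-cell precursors depend, was not called. Its probe set read 3386, 3560.3 and 3315 in the ERT2 arrays. It read 3652, 3549.5 and 3573 in the Cre-ERT2 arrays, where 1 array lay within the range of the controls. The difference was 0.07 on the log2 scale (SE 0.0492, limma adjusted p = 0.579), and its 95% interval ran from -0.05 to 0.19.

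Set against each other within an array, Bcl2 and Bcl2l1 moved apart. The log2 value of Bcl2 minus that of Bcl2l1 was 2.38 ± 0.042 (SD, n = 3) in ERT2 cells and 3.42 ± 0.014 (SD, n = 3) in Cre-ERT2 cells. The gap was thus 1.04 wider in Cre-ERT2 cells. Its absolute size carries the brightness of both probe sets, so only the change between arrays can be read.

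**Figure D2:**
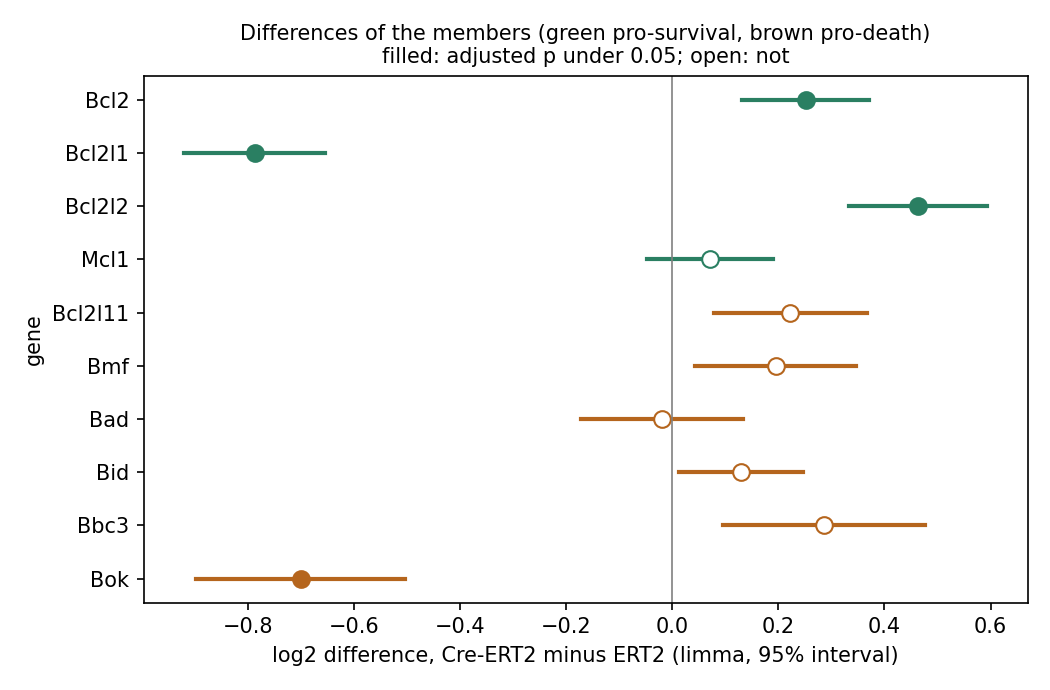
Log2 difference of each member (Cre-ERT2 minus ERT2, limma, 3 arrays a group) with its 95% interval, green for survival and brown for pro-death genes. Filled points passed an adjusted p under 0.05: Bcl2l1 at -0.79 and Bok at -0.70 lie left of 0, Bcl2l2 at 0.46 and Bcl2 at 0.25 right of it.

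Of the pro-death genes Bok was the member that passed the test, and it was lower. Its probe set (10348858) read 827, 739 and 723 in the ERT2 arrays. The Cre-ERT2 arrays read 478, 501 and 429, all below the controls. The mean fell to 61.5% of the control mean, a difference of -0.70 on the log2 scale (SE 0.0819, 95% interval -0.90 to -0.50, limma adjusted p = 0.00404). With any 1 array left out the limma adjusted p lay between 0.0107 and 0.0195. The intervals of Bok and Bcl2l1, which stand on opposite sides of the family, overlapped.

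Of the 5 BH3-only genes 0 passed limma's adjusted test and 4 had an unadjusted p under 0.05, beside 20.1% of all genes. In 4 of them all Cre-ERT2 arrays lay above all controls, as in 17.5% of all genes. Bcl2l11 encodes BIM, which binds all survival members and removes self-reactive B cells. It read 2437, 2533 and 2255 in the ERT2 arrays and 2812, 2887 and 2723 in the Cre-ERT2 arrays. The difference was 0.22 on the log2 scale (SE 0.0602, 95% interval 0.08 to 0.37, limma adjusted p = 0.103). Bbc3 encodes PUMA, a target of p53 and FOXO factors. It read 302, 315 and 335 in the ERT2 arrays and 428, 362 and 373 in the Cre-ERT2 arrays. The difference was 0.29 (SE 0.0793, 95% interval 0.09 to 0.48, limma adjusted p = 0.112), and 1 Cre-ERT2 array stood above the other two. Both genes passed the threshold when array weights were estimated (limma adjusted p = 0.0442 for Bcl2l11 and 0.0358 for Bbc3). In that fit ERT2 replicate 1 (weight 2.45) and Cre-ERT2 replicate 3 (2.54) weighed most, and the other arrays had weights of 0.40 to 0.99. Neither gene passed the threshold when any 1 of the arrays was left out.

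Bmf, whose product is released from the cytoskeleton under stress, read 554, 549.8 and 519.7 in the ERT2 arrays and 628, 578 and 655 in the Cre-ERT2 arrays. Its difference was 0.19 on the log2 scale (SE 0.0633, 95% interval 0.04 to 0.35, limma adjusted p = 0.171). Bid, which links death receptors to mitochondria once a caspase has cut its product, read 2548, 2695 and 2646 in the ERT2 arrays and 2932, 2906 and 2795 in the Cre-ERT2 arrays. Its difference was 0.13 (SE 0.0488, 95% interval 0.01 to 0.25, limma adjusted p = 0.239). Bmf and Bid showed separate groups with small gaps between them. Bad, whose product survival kinases hold inactive, read 482, 419 and 441 in the ERT2 arrays and 449, 434 and 439 in the Cre-ERT2 arrays, which fell inside the range of the controls. Its difference was -0.02 (SE 0.0636, 95% interval -0.17 to 0.13, limma adjusted p = 0.937).

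The balance of survival over death transcripts, weighted by level, was close in both groups. For each array the linear intensities of the 4 survival genes and of the 6 death genes were summed. The weights are probe set brightness, not molecules, so the absolute size of the ratio cannot be read. Its change between arrays depends on these weights too. The survival sum was 10568, 10927 and 10186 in the ERT2 arrays and 11367, 11631 and 11399.5 in the Cre-ERT2 arrays. The death sum was 7151, 7251 and 6918 in the ERT2 arrays and 7727, 7667 and 7413 in the Cre-ERT2 arrays. Both sums were higher in every Cre-ERT2 array than in every control, by 8.58% for survival and 6.97% for death genes between the group means.

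The ratio of the sums was 1.48, 1.51 and 1.47 in the ERT2 arrays and 1.47, 1.52 and 1.54 in the Cre-ERT2 arrays, so the groups overlapped. On the log2 scale it was 0.57 ± 0.018 (SD, n = 3) against 0.59 ± 0.033 (SD, n = 3), a difference of 0.02. With each gene weighing the same, the mean log2 value of survival minus death genes was 0.89 ± 0.043 (SD, n = 3) in ERT2 cells. It was 0.87 ± 0.051 (SD, n = 3) in Cre-ERT2 cells, a difference of -0.02 that is smaller than either SD. No test was made on these scores, since their members were chosen.

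Single members of large weight carried the sums. Bcl2 was 1095 intensity units higher in the mean of the Cre-ERT2 arrays and Bcl2l1 was lower, with a difference of -467. Among death genes Bcl2l11 was 399 and Bid 248 units higher, while Bok had a difference of -294. Without Bcl2 the level-weighted difference was -0.15 on the log2 scale, and without Bcl2l1 it was 0.10. Without Bok it was -0.050, and without Bcl2l11 it was 0.090. The sign of the balance thus turned when Bcl2 or Bok was left out.

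**Figure D3:**
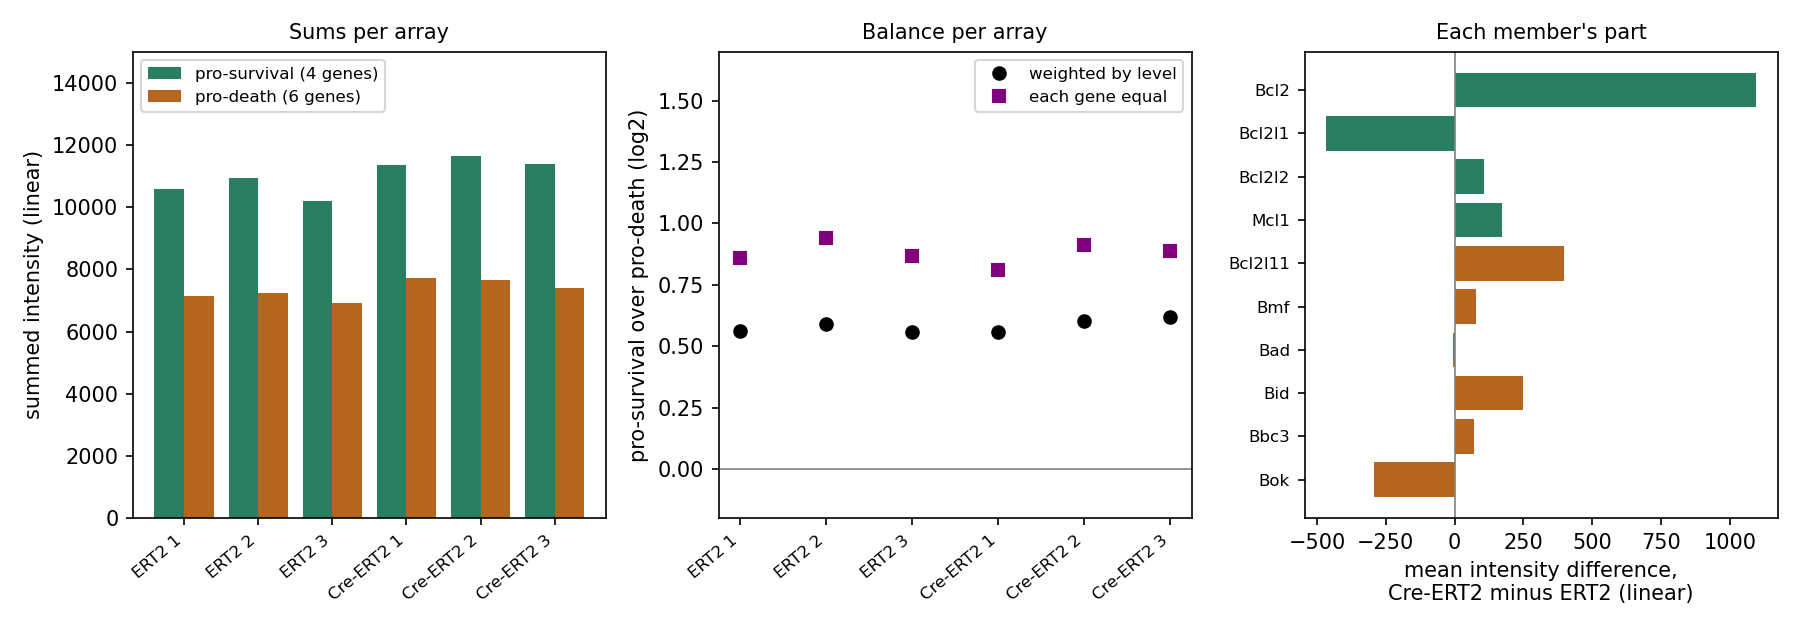
Left, summed linear intensity of the 4 survival and 6 death genes in each array. Middle, log2 of the survival over death balance in each array, weighted by level (circles, 0.56 to 0.62) or with each gene equal (squares, 0.81 to 0.94). Right, each member's difference in mean intensity, where Bcl2 gives the longest bar to the right and Bcl2l1 the longest to the left.

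Other genes of the pathway were read from 7 lists. Over all genes 8.10% were called, 20.1% had an unadjusted p under 0.05, and in 28.3% the groups did not overlap. Among core relatives outside the 10 members 0 of 5 passed limma's adjusted test and 1 had an unadjusted p under 0.05, with a median log2 difference of 0.01. Bak1, a pore-forming effector, had a difference of 0.18 (SE 0.0589, limma adjusted p = 0.175) with separate groups. Pmaip1, which encodes the BH3-only protein NOXA, had a difference of 0.02 and Hrk one of -0.01. The 3 Bcl2a1 genes of that list were not analysed here. Of the further BCL-2 related and BNIP genes 0 of 9 rose and 1 fell (median -0.01), namely Bnip3, a mitophagy gene, with a difference of -0.57 (SE 0.0516, limma adjusted p = 0.00128). Of the binding partners and stability factors, such as the VDAC channels, 14-3-3 proteins and the MCL-1 ligase Huwe1, 0 of 19 passed limma's adjusted test and 3 had an unadjusted p under 0.05, with a median of 0.01.

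Kinases that phosphorylate family members held 1 higher and 1 lower gene of 9 (median -0.04). An unadjusted p under 0.05 was found in 3 of the 9 kinases and separate groups in 4. Pim2, a kinase that phosphorylates BAD, rose by 0.43 on the log2 scale (SE 0.0539, limma adjusted p = 0.0054). Mapk8, which encodes the stress kinase JNK1 that acts on BCL-2 and BIM, fell, with a difference of -0.58 (SE 0.0685, limma adjusted p = 0.00419). Of the apoptosome and caspase genes 2 of 12 rose and 0 fell (median 0.02). They were Endog, a mitochondrial nuclease, with a difference of 0.35, and Htra2, a mitochondrial protease that blocks caspase inhibitors, with 0.26. In the death receptor branch 2 of 11 rose and 0 fell (median 0.06). Here 5 of 11 had an unadjusted p under 0.05, beside 20.1% of all genes, and 6 had separate groups, beside 28.3%. Tnfrsf10b, a receptor of the death ligand TRAIL, rose by 0.56 (SE 0.0766, limma adjusted p = 0.00794) and Fadd, the adaptor that recruits caspase 8, by 0.33. Tnfsf10, the gene of TRAIL, was not called and had a difference of -0.39 (SE 0.103, limma adjusted p = 0.0919) with separate groups. The other genes of this branch with separate groups were higher in Cre-ERT2 cells.

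Transcription regulators of family genes changed in both directions, with 2 of 19 higher and 3 lower and a median of -0.03. Over all genes 4.38% were higher and 3.72% lower. An unadjusted p under 0.05 was found in 9 of the 19, beside 20.1% of all genes, and separate groups in 11, beside 28.3%. Of the FOXO factors that drive Bcl2l11 and Bbc3, Foxo1 fell and Foxo3 rose, with log2 differences of -0.51 (SE 0.0562, limma adjusted p = 0.00317) and 0.39 (SE 0.0568, limma adjusted p = 0.0102). Gfi1, a repressor of blood progenitors, fell by 0.60 (limma adjusted p = 0.00336) and Egr1, an immediate early gene, fell by 0.33 (limma adjusted p = 0.0225). Htra2 and Fadd lost their calls when any array other than ERT2 replicate 2 was left out (limma adjusted p from 0.0682 to 0.145). Endog lost it without ERT2 replicate 3 (0.0806) and when an array of the Cre-ERT2 group was left out (0.0739 to 0.0989). Foxo3 lost its call in the Cre-ERT2 group without replicate 2 (0.0542) or 3 (0.0515). Egr1 kept its call only without ERT2 replicate 3 or Cre-ERT2 replicate 2 (0.0555 to 0.103 for the others).

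**Figure D4:**
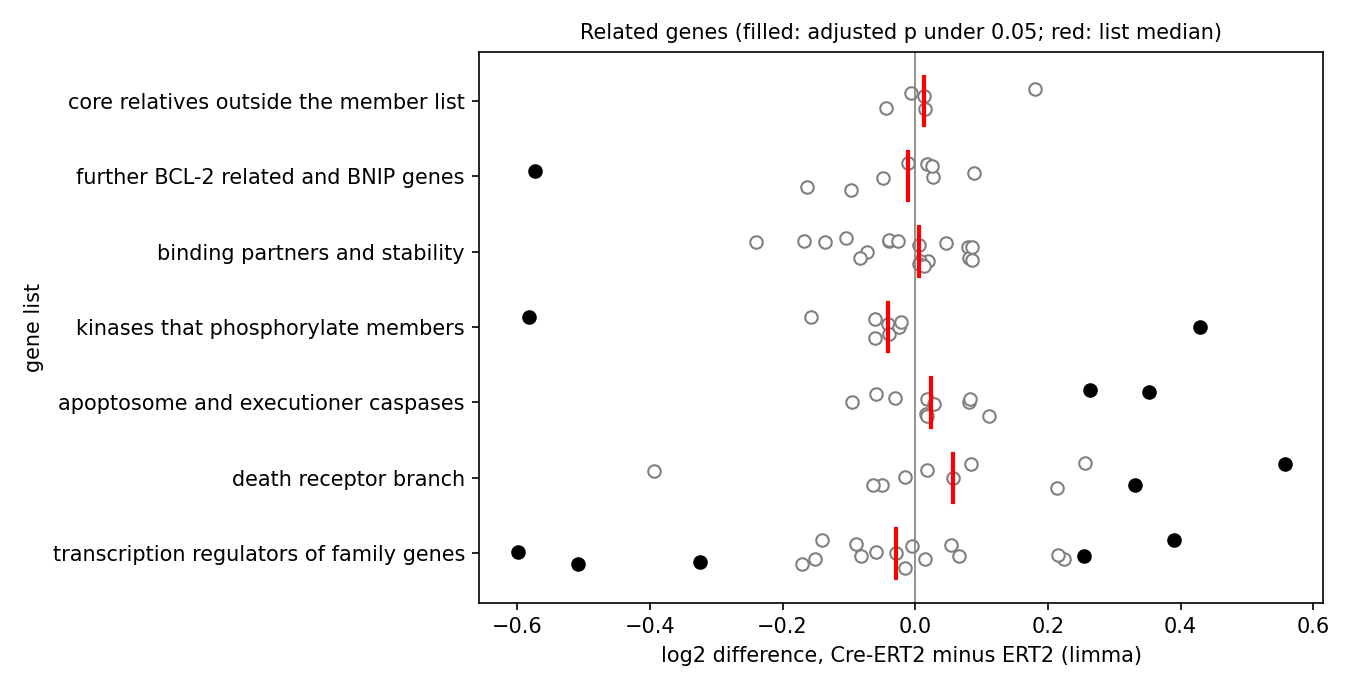
Log2 differences (Cre-ERT2 minus ERT2, limma) of the genes in 7 related lists, 1 point a gene, filled where the adjusted p was under 0.05, with the list median as a red bar. The medians lie between -0.04 and 0.06, close to the 0.02 of all genes, and the filled points of the kinase and regulator lists lie on both sides of 0.

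Marker genes were read beside these results. Of 13 pre-B markers 2 rose and 3 fell, with a median log2 difference of -0.03. Il7r, the receptor chain for interleukin 7, had a difference of -0.93 (SE 0.0453, limma adjusted p = 0.000118). The recombinase genes Rag1 and Rag2 fell, with differences of -0.89 and -1.35, while the transferase gene Dntt rose by 1.33 and Vpreb2, of the surrogate light chain, by 0.49. These 5 genes kept their calls without any 1 of the arrays. The summed intensity of the pre-B markers lay between 90053 and 91787 in the ERT2 arrays and between 85955 and 87846 in the Cre-ERT2 arrays. Of 9 myeloid markers 1 rose and 1 fell. Their summed intensity lay between 1370.4 and 1444 in the ERT2 arrays and between 1837 and 2036 in the Cre-ERT2 arrays. The risen one was Lyz2, a lysozyme gene, which read 378, 310.1 and 366 in the ERT2 arrays and 982, 994 and 819 in the Cre-ERT2 arrays. Its mean was 580 units higher with Cre-ERT2, so the rise of the myeloid sum was mainly that of this 1 gene. Itgam, another myeloid marker, fell, with a log2 difference of -0.49, and lost its call without ERT2 replicate 1 (limma adjusted p = 0.0574) or without replicate 2 of Cre-ERT2 (0.0558). Of 8 T-cell markers 0 rose and 1 fell, the antigen receptor kinase gene Zap70, which lost its call in the Cre-ERT2 group without replicate 1 (0.0512) or 2 (0.0531). The T-cell markers had sums of 1418 to 1497 against 1313 to 1405. NK-cell (7), erythroid (5) and stromal (8) markers held 0 genes called by limma and 0 with an unadjusted p under 0.05. Culture stress genes held 0 higher and 1 lower of 8, with a median of 0.10. The lower one was Egr1, which was also counted among the transcription regulators. Of these 8, 5 had an unadjusted p under 0.05, beside 20.1% of all genes, and 5 had separate groups, beside 28.3%. The heat-shock gene Hspa1a had a difference of 0.32 (limma adjusted p = 0.0972), Atf3 one of 0.26 (0.100) and Jun one of 0.18 (0.216). Hmox1, the haem oxygenase gene, had one of -0.23 (0.114). The part of these genes in the members' differences was not tested. In bulk RNA fewer cells of a type and less RNA per cell cannot be told apart.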

How the data were processed

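Intensities of 35556 probe sets on 6 arrays form the deposited table. The authors made these values with RMA, per the submitters' processing notes; the linear scale follows from their range of 6.27 to 26714. Its version, the array annotation and the build are not stated in those sources. RMA equalises the arrays' distributions, so a change common to all genes would not show. Values were taken as log2(intensity + 1), which slightly understates the change of dim probe sets. A probe table names 1 gene for 21789 probe sets, several for 1621 and none for 12146, and 21698 of the first matched the gene table of GRCm38.p6. A gene was read from its probe set with the highest mean log2 value. Cre-ERT2 was compared with ERT2 in limma 3.58.1 (R 4.3.3; lmFit and eBayes, no covariates, all arrays), and p-values were adjusted by Benjamini-Hochberg over the whole table (threshold 0.05). Errors are SDs over 3 arrays or limma's moderated standard errors; precision is limited by how few arrays there are. In simulated arrays with 200 of 35556 probe sets changed, this fit found 4% of the log2 changes sized 0.25, 46% of those sized 0.5, 90% at 1 and 98% at 2, and 6.3% of its calls were false.

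The members and the related lists were chosen with earlier results of these data known. The genes named were the 10 members, Sox4, and for each called member the 2 genes with the nearest profile. Up to 4 called genes with separate groups of each pathway list were named too (marker and stress lists were outside this rule). Bak1, Pmaip1, Hrk, Huwe1, Tnfsf10, Hspa1a, Atf3, Jun, Hmox1 and the called markers were named after their values were seen. Some genes of the lists were not analysed here. Sequences are from RefSeq (GRCm38.p6). Alternatives were a trend or robust fitting in eBayes, cyclic loess, median centring, another round of quantile normalization, brighter probe sets, the replicate number as a block, array weights, a pseudocount of 16, mean probe sets, each array or member left out, and, added after seeing the data, only the named probe sets.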

Additional observations from a re-analysis of the deposited data

How the results depend on the processing

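Bcl2l1, Bok, Bcl2l2 and Sox4 kept their direction and their call under all 11 other settings and without any 1 of the 6 arrays, with log2 differences of -0.83 to -0.76, -0.82 to -0.64, 0.43 to 0.49 and -1.42 to -1.25. Trend or robust fitting, the block and the choice of brighter or named probe sets leave the difference itself unchanged by design. Averaging probe sets did so too, since each of these genes had 1. Bcl2 had differences of 0.23 to 0.28 with single arrays left out and lost its call in 5 of the 6. Bcl2l11 passed the threshold among the brighter probe sets (difference 0.22, limma adjusted p = 0.0463), with array weights (0.20, 0.0442) and among named probe sets alone (0.22, 0.0391), and Bbc3 with array weights (0.29, 0.0358) and among named probe sets alone (0.29, 0.0345). Brighter or named probe sets alone mean fewer tests, and the standard errors changed as well. That of Bcl2l11 was 0.0602 in the main fit, 0.0561 among brighter and 0.0588 among named probe sets. Why these genes passed under any of the 3 settings was not tested. The number of higher members was 4 with array weights and 4 among named probe sets alone, and 1 to 2 with single arrays left out, while the number of lower ones was 2 throughout.

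With the replicate number as a block, Bcl2 had a difference of 0.25 and a limma adjusted p of 0.0704, and 1 member was higher; no other member's call changed. Of the pathway genes Htra2 (limma adjusted p = 0.0749), Fadd (0.0604) and Endog (0.0602) lost their calls in that fit. Whether equal numbers mark paired samples is not known here. Deviations from the group means correlated with r of 0.20, 0.34 and -0.05 for replicates 1, 2 and 3. Of the samples, 3 of 6 correlated best with their own number, and so few samples cannot decide the question.

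The level-weighted balance differed by 0.01 to 0.04 on the log2 scale with single arrays left out and by 0.02 to 0.03 under other normalizations. It moved to -0.15 without Bcl2, 0.10 without Bcl2l1, 0.090 without Bcl2l11 and -0.050 without Bok. The balance with equal weights lay between -0.04 and 0.01 with single arrays left out, so its sign is unsettled. It moved to -0.10 without Bcl2, 0.24 without Bcl2l1, -0.17 without Bcl2l2, 0.034 without Bbc3 and -0.16 without Bok. In simulated arrays the fit called 4% of log2 changes of 0.25, about the size seen in Bcl2l11 and Bbc3. Fewer probe sets were changed there than genes were called in the measured arrays, and the adjusted p depends on that number. The simulated rate therefore cannot be carried over to these genes.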

Other observations

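The genes whose profile over the 6 arrays lay nearest to a called member, by the root mean square difference of log2 values after each gene's ERT2 mean was subtracted, were sought among 19937 genes. For Bcl2l1 they were Gapt, an adaptor gene expressed in B cells (root mean square difference 0.0284, log2 difference -0.76), and Rab31, a GTPase of vesicle traffic (0.0346, -0.82). For Bok they were Frmd5 (0.0475, -0.70) and N4bp3 (0.0479, -0.73). For Bcl2l2 they were Aldh6a1, a mitochondrial dehydrogenase (0.0294, 0.44), and Mtmr1, a lipid phosphatase (0.0349, 0.47). For Bcl2 they were Tacc1 (0.012, 0.25) and Usp36 (0.0126, 0.25). The measure includes the difference between the groups and is given as a description.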
